A study of Mus musculus with 9 samples.

Results

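The genes described here are those of mouse MHC class I and class II antigen presentation, 52 of the 53077 genes listed in each sample. They were chosen by name: 45 genes whose symbol starts with H2-, and 7 partners, namely *B2m*, *Tap1*, *Tap2*, *Tapbp*, *Ciita*, *Nlrc5* and *Cd74*. The set was selected on earlier results for the same estimated counts and TPM (a level per transcript length, scaled to 1000000 per sample), so the count of its members that changed is a description and not independent evidence. Of the 52 members, 12 had no count in any sample, and 29 passed the filter on low counts and were tested. The other 23 were not tested. A member could pass through the group in which it was high, so the 29 do not stand for the whole set.

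The cells were 5TGM1 mouse multiple myeloma cells that carried a Cas9 transgene in all 3 groups. In the control group they were transduced with a control gRNA (genotype label WT), in the next with a gRNA against *Slc2a1*, which encodes the glucose transporter GLUT1, and in the last with 5 gRNAs (*Slc2a1/3/5/6/8* gRNA), the further targets being the transporter genes *Slc2a3*, *Slc2a5*, *Slc2a6* and *Slc2a8*. Each group had 3 replicates. The transduced cultures were not clones and could hold edited and unedited cells side by side. The 5-gene population had first been transduced with the gRNAs against the further targets, sorted and expanded before the *Slc2a1* gRNA was added, so the extra deletions and that history cannot be told apart. It is not stated whether the replicates came from separate transductions, so the p-values measure the spread between these samples.

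MHC class I molecules are a heavy chain paired with beta-2-microglobulin, the product of *B2m*, and they display peptides from inside the cell to CD8+ T cells. The peptides are pumped into the endoplasmic reticulum by the TAP transporter (*Tap1*, *Tap2*) and loaded with the help of tapasin (*Tapbp*). *H2-K1* and *H2-D1* encode the classical (class Ia) heavy chains, and the Q, T and M genes encode non-classical (class Ib) chains, several of which are ligands of NK cells or unconventional T cells. Class II molecules pair an alpha with a beta chain, travel with the invariant chain CD74 and exchange its remnant for antigenic peptide with the help of H2-DM, which *H2-O* restrains. NLRC5 is the transactivator of the class I genes and CIITA that of the class II genes. Plasma cells normally keep class I and shut off *Ciita* and most class II transcription.

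NLRC5 acts through a conserved SXY module of class I promoters, beside which an enhancer A element binds NF-kappa B and an interferon response element binds IRF factors. Promoter windows from 250 bases before to 50 bases after an annotated start were taken from RefSeq (GRCm38.p6), in which 35 members have at least 1 window. *Nlrc5*, *H2-Q5*, *H2-T24* and *H2-Ab1* have none. Windows were searched on both strands for 4 runs of letters, in which N is any base: GGGATTCCC for the kappa B site of enhancer A, AANNGAAA for the IRF core, TGACG for the core of the X2 box and CCAAT for the Y box. GGGATTCCC was found in *H2-K1*, *H2-D1*, *H2-Q6* and *H2-Q7* among the 35 members, against 0.414% of all 27025 genes with a window. AANNGAAA was found in 21 members, TGACG in 14 and CCAAT in 32, while the 3 runs occur in 26.7, 23.045 and 41.1% of all these genes. A match describes the letters in the window and is not shown to be a bound site.

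These promoter windows are shown as examples from each arm. They stand before both classical heavy chain genes, the non-classical genes *H2-Q7* and *H2-Q10*, the shared light chain *B2m* and the class II beta chain *H2-Eb1*. *H2-Q10* had a mean of only 13.2 TPM in control. Its log2 fold change with the 5 gRNAs was the lowest among the tested members (-2.03). The *H2-K1* window is chr17:34000298-34000597, minus strand, that of *H2-D1* is chr17:35262844-35263143, plus strand, and that of *H2-Q7* is chr17:35438905-35439204, plus strand. The *H2-Q10* window is chr17:35469839-35470138, plus strand, that of *B2m* is chr2:122147437-122147736, plus strand, and that of *H2-Eb1* is chr17:34305617-34305916, plus strand. Capitals mark the 4 searched runs on either strand, so that a run on the opposite strand reads as its reverse complement.
H2-K1: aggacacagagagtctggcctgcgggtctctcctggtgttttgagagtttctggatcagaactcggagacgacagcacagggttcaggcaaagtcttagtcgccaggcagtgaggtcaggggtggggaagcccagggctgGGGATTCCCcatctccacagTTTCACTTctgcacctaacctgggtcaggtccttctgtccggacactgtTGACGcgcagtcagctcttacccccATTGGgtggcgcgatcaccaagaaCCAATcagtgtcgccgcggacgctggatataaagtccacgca
H2-D1: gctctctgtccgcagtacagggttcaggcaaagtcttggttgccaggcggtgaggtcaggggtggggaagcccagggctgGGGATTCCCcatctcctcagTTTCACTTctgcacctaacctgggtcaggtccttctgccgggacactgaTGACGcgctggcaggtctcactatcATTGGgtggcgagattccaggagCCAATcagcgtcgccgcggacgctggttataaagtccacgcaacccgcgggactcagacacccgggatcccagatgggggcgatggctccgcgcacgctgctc
H2-Q7: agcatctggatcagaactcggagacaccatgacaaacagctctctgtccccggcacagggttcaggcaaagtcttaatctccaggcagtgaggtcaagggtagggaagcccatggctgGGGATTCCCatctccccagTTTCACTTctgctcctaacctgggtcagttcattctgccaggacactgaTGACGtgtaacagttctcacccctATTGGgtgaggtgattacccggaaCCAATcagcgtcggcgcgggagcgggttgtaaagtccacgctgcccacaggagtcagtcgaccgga
H2-Q10: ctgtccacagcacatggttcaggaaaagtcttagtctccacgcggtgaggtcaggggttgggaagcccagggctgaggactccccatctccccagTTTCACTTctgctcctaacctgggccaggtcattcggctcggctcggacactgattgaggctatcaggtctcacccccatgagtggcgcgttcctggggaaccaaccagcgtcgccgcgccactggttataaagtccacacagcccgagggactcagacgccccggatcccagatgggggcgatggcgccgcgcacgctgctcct
B2m: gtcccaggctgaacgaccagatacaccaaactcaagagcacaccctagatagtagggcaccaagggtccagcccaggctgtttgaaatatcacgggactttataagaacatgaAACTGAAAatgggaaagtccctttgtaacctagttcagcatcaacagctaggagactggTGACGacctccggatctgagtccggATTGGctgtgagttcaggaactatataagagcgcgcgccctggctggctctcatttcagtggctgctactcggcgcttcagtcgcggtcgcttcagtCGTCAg
H2-Eb1: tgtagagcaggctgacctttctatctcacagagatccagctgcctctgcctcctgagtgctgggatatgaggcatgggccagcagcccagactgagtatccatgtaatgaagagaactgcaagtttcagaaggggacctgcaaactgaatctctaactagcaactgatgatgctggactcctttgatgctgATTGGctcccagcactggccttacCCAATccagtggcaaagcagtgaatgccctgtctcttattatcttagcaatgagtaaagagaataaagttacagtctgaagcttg
*H2-K1*, *H2-D1* and *H2-Q7* hold all 4 runs in the same order. *H2-Q10* holds the IRF core alone, *B2m* holds every run but GGGATTCCC, and *H2-Eb1* holds CCAAT on both strands and none of the others.

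The estimated counts summed to between 21838805 and 30537105 per sample, and mitochondrial genes took 4.84 to 11.1% of them. A gRNA makes short edits that need not change a transcript's level, so the targeted genes are a limited check of the labels. *Slc2a1* had a TPM of 59.5, 26.9 and 32.9 with the control gRNA, 37.1, 28.3 and 31.4 with the *Slc2a1* gRNA and 24.1, 31.5 and 19.1 with the 5 gRNAs. It was not called with its own gRNA (-0.21 on the log2 scale, adjusted p = 0.544) and fell with the 5 gRNAs (-0.66, adjusted p = 0.029). With the 5 gRNAs *Slc2a8* (-1.22, adjusted p = 0.000309) and *Slc2a6* (-0.67, adjusted p = 0.0366) also fell, *Slc2a3* was not called (0.27, adjusted p = 0.259), and *Slc2a5* went against the direction of a loss. *Slc2a5* rose from 0.396, 0.177 and 0.104 TPM in control to 1.07, 0.508 and 1.42 (2.65, adjusted p = 0.00478). The summed TPM of 8 plasma cell markers lay between 672 and 1100 in the 9 samples, with every marker detected. Of 10 B cell markers 8 were under 1 TPM in every sample, *Ms4a1* and *Pax5* among them, while *Cd79b* carried most of their sum. Markers of macrophages and dendritic cells (11 of 12), of T and NK cells (7 of 8) and of stroma and endothelium (4 of 6) were likewise under 1 TPM throughout, with *Zbtb46*, *Cd4*, *Col1a1* and *Pecam1* as the exceptions. The summed macrophage and dendritic cell markers lay at 2.92 to 3.68 TPM in control, 2.20 to 2.88 with the *Slc2a1* gRNA and 1.51 to 2.86 with the 5 gRNAs. Those of stroma and endothelium lay at 3.35 to 5.73, 3.17 to 3.69 and 1.74 to 2.33 TPM, those of T and NK cells at most at 1.76, and the part of these low levels in the results below was not tested. Markers called against control were *Jchain*, with -1.33 (adjusted p = 0.00529) for the *Slc2a1* gRNA and 0.59 (adjusted p = 0.0348) for the 5 gRNAs, and, for the 5 gRNAs, *Pecam1* at -1.14 (adjusted p = 0.00319), *Flt3* at -1.61 (adjusted p = 0.0156) and *Pdgfra*, which was listed at 0 in all 3 samples of that group and was at most 0.188 TPM elsewhere (adjusted p = 0.0189). In these bulk samples, fewer cells with a transcript and less of it per cell cannot be told apart.

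Class I transcripts were among the abundant messages of the control cells. On the TPM scale *H2-K1* stood highest at 4461 ± 125 (SD, n = 3), followed by *B2m* at 3042 ± 207, *H2-D1* at 2011 ± 176 and *Cd74* at 1066 ± 142. The replicates of these 4 genes did not overlap. *H2-Q7* (829.9 ± 45.2) and *H2-Q6* (423 ± 64.1) led the non-classical chains, and the loading genes *Tap1*, *Tapbp* and *Tap2* stood at 123, 59.2 and 31.8 TPM. The chains of class II were low, with *H2-Eb1* at 43 ± 11.8 and *H2-Ab1* at 2.64 ± 0.841 TPM. In all, 26 members had a control mean of at least 1 TPM.

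**Figure D1:**
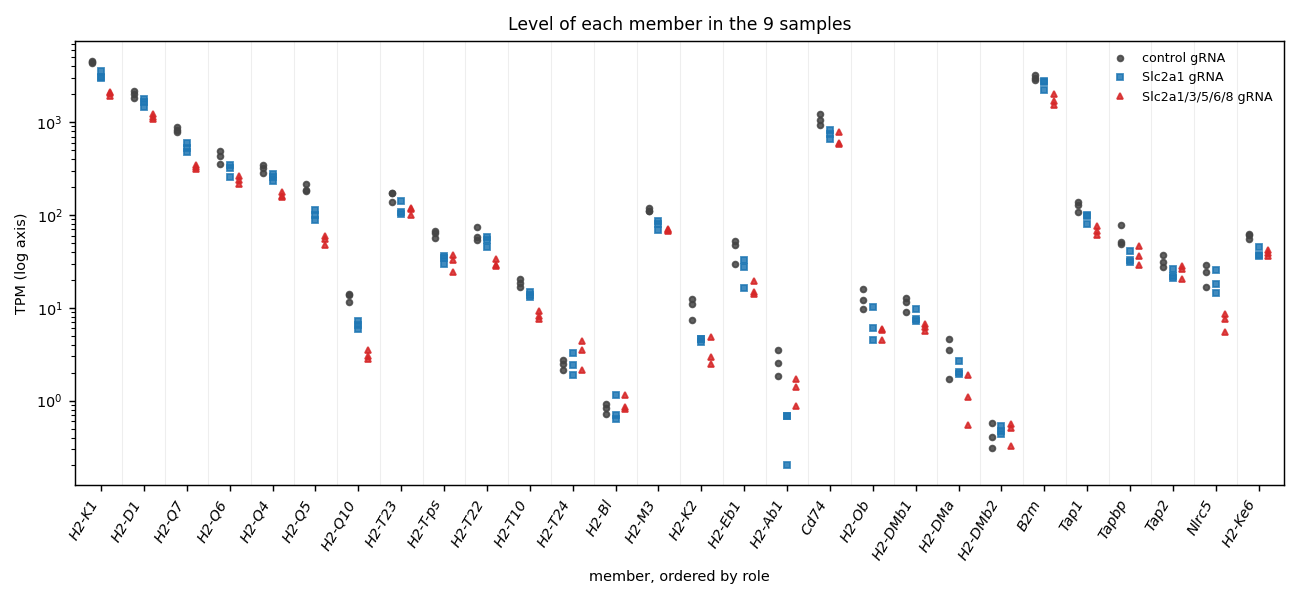
TPM on a log axis of 28 tested members in the 9 samples, by gRNA group, with 1 point per sample. *H2-K1* and *B2m* stand highest among the members in every sample, and *Ciita*, listed at 0 in 1 sample, is not drawn.

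Members of class Ia, class Ib and class II fell with the 5 gRNAs, fewer were called with the *Slc2a1* gRNA, and none was called higher in any comparison. With the *Slc2a1* gRNA 8 of the 29 tested members fell, beside 4.64% of all 13834 genes called in either direction and 2.39% called lower. With the 5 gRNAs 21 of 29 fell, beside 15.9% called in either direction and 7.44% lower. Between the deleted populations 12 of 29 were lower with the 5 gRNAs, beside 2.31% called in either direction and 0.947% lower. The median log2 fold change of the tested members was -0.31, -0.78 and -0.50 in these 3 comparisons, against medians of all genes of -0.0013, 0.0072 and 0.0034. Both comparisons with control share the control samples. A call is a Benjamini-Hochberg adjusted p under 0.05 over all genes in edgeR's quasi-likelihood test, with the replicate number as a block. In both comparisons with control 7 members were called, and the share of all genes called in both is not given here.

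The calls with the *Slc2a1* gRNA moved with single samples, among members and among all genes. The members called numbered between 0 and 11 when each sample was left out in turn. The count was 0 without control replicate 2, control replicate 3 or *Slc2a1* gRNA replicate 1. In these fits 13, 12 and 11 members had an unadjusted p under 0.05. Of all genes 0.0773, 0.316 and 0.441% were called in them, beside 4.64% with all samples. Without control replicate 1 or *Slc2a1* gRNA replicate 2, 1 member was called, beside 0.507 and 0.167% of all genes. When the effective length of each gene in each sample was added to the fit as an offset, 2 were called, *H2-Q5* and *H2-Q10*. Of all genes 1.19% were called in that fit. With the 5 gRNAs 17 to 23 members were called with a sample left out, beside 4.45 to 17.7% of all genes. With effective length 20 were called, beside 9.56% of all genes. On log2(TPM + 1) limma called 0 members with the *Slc2a1* gRNA, where 21 had an unadjusted p under 0.05, and 0 of all 13834 genes. DESeq2 on counts called 11 members there, beside 9.07% of all genes. With the 5 gRNAs limma called 17 members, beside 2.43% of all genes.

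**Figure D2:**
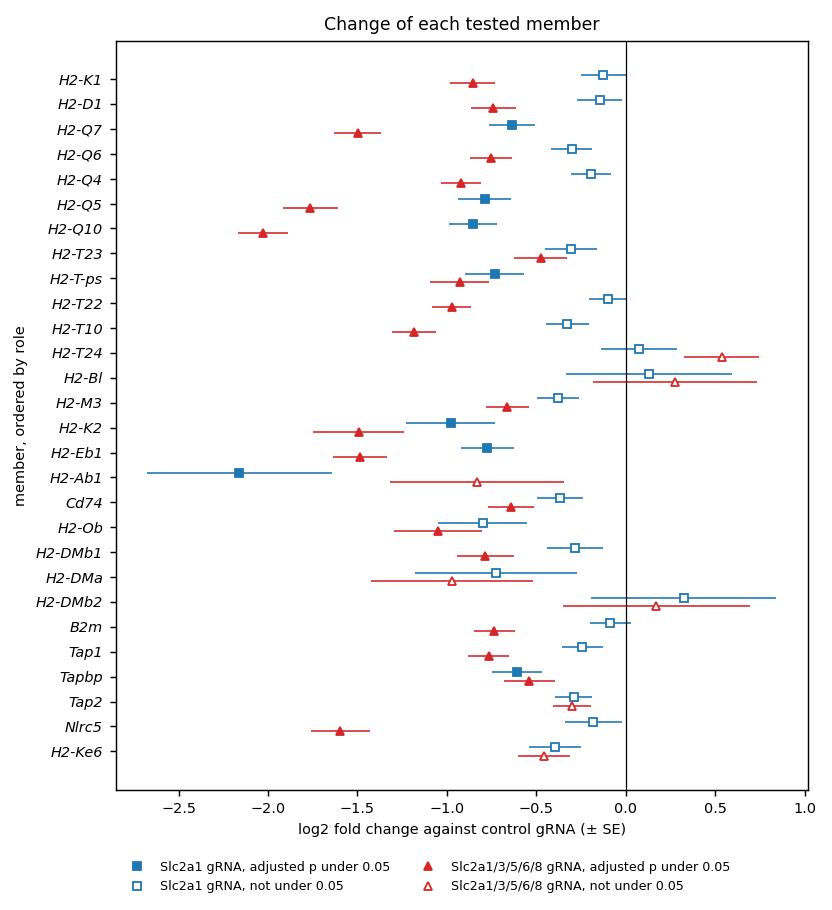
Log2 fold change against control with its SE for 28 tested members, with the *Slc2a1* gRNA (squares) and the 5 gRNAs (triangles), filled where the adjusted p was under 0.05. Most triangles lie left of their squares, no point right of 0 is filled, and *Ciita* is not drawn.

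The classical heavy chains and their light chain fell together with the 5 gRNAs. *H2-K1* had a TPM of 4487, 4325 and 4571 in control replicates 1, 2 and 3, 3074, 3020.4 and 3598 with the *Slc2a1* gRNA and 2087, 2109 and 1919.7 with the 5 gRNAs. The 3 groups did not overlap. In the count-based fit *H2-K1* was 1.81-fold lower with the 5 gRNAs (log2 fold change -0.86 ± 0.13 (SE), adjusted p = 0.0015), while the *Slc2a1* gRNA gave a log2 fold change -0.13 ± 0.13 (SE), adjusted p = 0.608. *H2-D1* ran at 1998, 1842 and 2193 TPM in control, 1656, 1441 and 1793 with the *Slc2a1* gRNA and 1087, 1228 and 1141 with the 5 gRNAs, again in 3 separate ranges. It fell with the 5 gRNAs (log2 fold change -0.74 ± 0.12 (SE), adjusted p = 0.00278) and was not called with the *Slc2a1* gRNA (-0.15, adjusted p = 0.523).

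*B2m*, whose product every class I molecule needs, shared this pattern. Its TPM was 3015, 2850.3 and 3261 in control, 2758, 2247 and 2736 with the *Slc2a1* gRNA and 1534, 1987 and 1712 with the 5 gRNAs. All 3 groups were separate on this scale. It was 1.67-fold lower with the 5 gRNAs (log2 fold change -0.74 ± 0.11 (SE), adjusted p = 0.00191) while the *Slc2a1* gRNA gave -0.09 on the log2 scale (adjusted p = 0.706). *B2m* shares none of its 31-base words with another gene and had 1 transcript length in all 9 samples. For *H2-K1* 22.8% and for *H2-D1* 26.7% of the words also occur in other genes, so their reads are less certain. The TPM of a median gene was itself lower with the *Slc2a1* gRNA, with a median log2 difference of -0.11 on the log2(TPM + 1) scale. On TPM 18 of the 29 members lay wholly below control with that gRNA, beside 17.8% of all tested genes, and 23 did with the 5 gRNAs, beside 16.7%.

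*Nlrc5*, the class I transactivator, showed the same split between the populations with a larger change. Its TPM was 29.1, 16.6 and 24.6 in control, 25.5, 14.4 and 18.2 with the *Slc2a1* gRNA and 5.46, 7.52 and 8.53 with the 5 gRNAs. The control and *Slc2a1* gRNA groups overlapped and the 5-gRNA group lay below every other sample. It fell 3.02-fold with the 5 gRNAs (log2 fold change -1.60 ± 0.17 (SE), adjusted p = 0.00018) and was 2.67-fold lower than with the *Slc2a1* gRNA (adjusted p = 0.00126). Against control the *Slc2a1* gRNA gave -0.18 (adjusted p = 0.543), and without control replicate 1 that value was 0.013. The call with the 5 gRNAs was kept in each of the 9 fits that left out a sample.

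Of the peptide loading genes, *Tap1* and *Tapbp* fell with the 5 gRNAs and *Tap2* was not called. *Tap1* had 127, 107 and 137 TPM in control, 98.6, 80.3 and 99.6 with the *Slc2a1* gRNA and 60.4, 76.4 and 67.4 with the 5 gRNAs, and it fell with the 5 gRNAs (log2 fold change -0.77 ± 0.11 (SE), adjusted p = 0.00156). *Tap2*, the other chain of the transporter, had 30.9, 27.5 and 37.1 TPM in control, 22, 20.8 and 26.1 with the *Slc2a1* gRNA and 20.3, 28.4 and 26.2 with the 5 gRNAs. Its control and 5-gRNA samples overlapped, and neither comparison passed (-0.29, adjusted p = 0.129; -0.30, adjusted p = 0.0707). *Tapbp* (tapasin) fell in both, by 0.61 with the *Slc2a1* gRNA (adjusted p = 0.0324) and by 0.54 with the 5 gRNAs (adjusted p = 0.0233) on the log2 scale. Its values were 51.2, 48.7 and 77.6 TPM in control, 32.9, 31.4 and 40.9 with the *Slc2a1* gRNA and 28.7, 46 and 36.4 with the 5 gRNAs, and the deleted populations were not called different from each other (log2 fold change 0.07, adjusted p = 0.84).

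Among the non-classical chains all 5 Q genes that were tested fell with the 5 gRNAs, with a median log2 fold change of -1.50. Of all genes 7.44% were called lower in that comparison. *H2-Q10*, a chain known as a secreted product of liver, was low in these cells. It had 13.7, 11.6 and 14.2 TPM in control, 5.96, 7.12 and 6.5 with the *Slc2a1* gRNA and 2.99, 3.55 and 2.81 with the 5 gRNAs, in 3 separate ranges. It fell 1.81-fold with the *Slc2a1* gRNA (log2 fold change -0.85 ± 0.13 (SE), adjusted p = 0.00879) and 4.07-fold with the 5 gRNAs (log2 fold change -2.03 ± 0.14 (SE), adjusted p = 7.08e-06). *H2-Q5* ran at 182, 186 and 213 TPM in control, 88.1, 99.1 and 114 with the *Slc2a1* gRNA and 55.6, 59.7 and 47.8 with the 5 gRNAs. It fell 1.73-fold (adjusted p = 0.017) and 3.4-fold (adjusted p = 5.83e-05), and it is annotated as a polymorphic pseudogene in GENCODE M21.

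*H2-Q7*, which with *H2-Q6* encodes forms of the Qa-2 antigen, had 817, 792 and 880.1 TPM in control, 523, 473 and 593 with the *Slc2a1* gRNA and 332, 343 and 309 with the 5 gRNAs. No value of one group reached another. It fell in both (-0.63, adjusted p = 0.0207, and -1.50, adjusted p = 5.9e-05). *H2-Q6* and *H2-Q4* fell with the 5 gRNAs, with log2 fold changes of -0.76 (adjusted p = 0.00189) and -0.92 (adjusted p = 0.000446). With the *Slc2a1* gRNA they stood at -0.30 (adjusted p = 0.152) and -0.19 (adjusted p = 0.325). *H2-Q6* shared 50.3% of its 31-base words with other genes in GENCODE M21 transcripts, *H2-Q7* 39.1%, *H2-Q4* 38.4%, *H2-Q5* 57.8% and *H2-Q10* 30.3%, so the division of reads among them is uncertain.

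Of 6 tested T genes 4 fell with the 5 gRNAs, beside 7.44% of all genes called lower. *H2-T10* and *H2-T22*, whose products are seen by gamma delta T cells, fell by 1.18 (adjusted p = 0.00018) and 0.97 (adjusted p = 0.000241) on the log2 scale with the 5 gRNAs. The pair share 51.0% (*H2-T22*) and 50.7% (*H2-T10*) of their 31-base words with other genes, mostly with each other. *H2-T10* is annotated as a polymorphic pseudogene in GENCODE M21. *H2-T22* had 74, 54.1 and 58 TPM in control, 57.7, 45.2 and 54.3 with the *Slc2a1* gRNA and 28.3, 33.5 and 29.1 with the 5 gRNAs, so that control and *Slc2a1* gRNA samples overlapped.

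*H2-T23* encodes Qa-1, which presents leader peptides of other class I chains to NK cell receptors. Its TPM was 171, 138 and 171 in control, 108, 103 and 142 with the *Slc2a1* gRNA and 115, 118 and 99.9 with the 5 gRNAs. It passed narrowly with the 5 gRNAs (log2 fold change -0.48 ± 0.15 (SE), adjusted p = 0.0458), and 6 of the 9 fits that left out a sample lost the call. *H2-T-ps*, an annotated pseudogene that shares 48.4% of its words, fell with both (-0.73, adjusted p = 0.0285, and -0.93, adjusted p = 0.00376). *H2-T24* had a positive log2 fold change that did not pass the test, with 2.12, 2.5 and 2.75 TPM in control and 2.13, 3.5 and 4.43 with the 5 gRNAs (log2 fold change 0.54, adjusted p = 0.102). *H2-Bl*, annotated as a polymorphic pseudogene and with 14 to 24.3 estimated counts, had 0.13 and 0.27 and was not called in either.

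*H2-M3*, which presents N-formylated peptides, was the single M gene tested. It had 110.02, 110.04 and 120.2 TPM in control, 80.3, 68.8 and 87.1 with the *Slc2a1* gRNA and 67.7, 69.97 and 68.2 with the 5 gRNAs. Both deleted populations lay below control, and the 5 gRNAs gave a called decrease (log2 fold change -0.66 ± 0.12 (SE), adjusted p = 0.00424) while the *Slc2a1* gRNA did not (-0.38, adjusted p = 0.0882). *H2-K2*, annotated as a transcribed pseudogene beside *H2-K1*, fell in both (-0.98, adjusted p = 0.0443, and -1.49, adjusted p = 0.00302) from 10.24 TPM in control. *H2-Ke6*, named for its place but encoding a hydroxysteroid dehydrogenase, had -0.40 (adjusted p = 0.135) and -0.46 (adjusted p = 0.0509), and 76.1% of its words also lie in the overlapping gene *Gm20427*.

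The class II transactivator was scarcely detected, whereas the invariant chain was abundant. *Ciita* had 25, 0 and 7 estimated counts in control replicates 1, 2 and 3, 22, 22 and 9 with the *Slc2a1* gRNA and 2, 5 and 22 with the 5 gRNAs. It was at most 0.161 TPM, and no difference was detectable at this depth (adjusted p = 0.429 and 0.858). *Cd74*, the invariant chain, was at 1054, 931 and 1214 TPM in control, 751, 659 and 827 with the *Slc2a1* gRNA and 585, 786 and 599 with the 5 gRNAs. It fell with the 5 gRNAs (log2 fold change -0.64 ± 0.13 (SE), adjusted p = 0.00734) and was not called with the *Slc2a1* gRNA (-0.37, adjusted p = 0.119).

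Of the class II chains, *H2-Eb1* and *H2-Ab1* were tested, with levels far apart. *H2-Eb1*, an E beta chain, had 52, 29.7 and 47.2 TPM in control, 27.5, 16.5 and 33 with the *Slc2a1* gRNA and 14.2, 19.4 and 14.8 with the 5 gRNAs. It fell in both, 1.71-fold (log2 fold change -0.77 ± 0.15 (SE), adjusted p = 0.0175) and 2.8-fold (log2 fold change -1.48 ± 0.15 (SE), adjusted p = 0.000169). *H2-Ab1*, the A beta chain, had 58, 80 and 108 estimated counts in control, 5, 19 and 18 with the *Slc2a1* gRNA and 53, 32 and 24 with the 5 gRNAs. It fell with the *Slc2a1* gRNA (log2 fold change -2.16 ± 0.52 (SE), adjusted p = 0.0352) and not by the test with the 5 gRNAs (-0.83, adjusted p = 0.268). The call with the *Slc2a1* gRNA was kept in 4 of the 9 fits that left out a sample. The difference between the deleted populations was not called (log2 fold change 1.33, adjusted p = 0.2). *H2-Aa*, the A alpha chain, had 0 to 4 estimated counts and was not tested; it is named after its values were seen.

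The class II accessory chains were low. *H2-DMb1*, a chain of the peptide exchange factor H2-DM, had 12.9, 9.03 and 11.6 TPM in control, 7.57, 7.26 and 9.79 with the *Slc2a1* gRNA and 5.64, 6.17 and 6.75 with the 5 gRNAs, and it fell in the last (log2 fold change -0.78 ± 0.16 (SE), adjusted p = 0.00716). *H2-Ob*, a chain of its inhibitor *H2-O*, had 15.9, 9.74 and 12 TPM in control, a mean of 6.88 ± 2.88 (SD, n = 3) with the *Slc2a1* gRNA and 5.96, 5.71 and 4.48 with the 5 gRNAs. It fell with the 5 gRNAs (log2 fold change -1.05 ± 0.25 (SE), adjusted p = 0.015). *H2-DMa*, with 20 to 85.7 estimated counts, was not called (-0.72, adjusted p = 0.378, and -0.97, adjusted p = 0.163). *H2-DMb2*, with at most 22, had 0.32 and 0.17 and was not called either.

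Of the 23 members not tested, 2 had a mean of at least 3 estimated counts. *H2-Q2* had 16, 13 and 0 with the *Slc2a1* gRNA and at most 3 in every other sample. *H2-M10.2* had 10 and 11 in 1 sample of each deleted population and at most 4 elsewhere. A further 9 had some counts with a mean under 3, and 12 had none.

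Because Salmon divides reads between close paralogs, the members of a class were also summed. The 2 class Ia genes summed to a TPM of 6472 ± 299 (SD, n = 3) in control, 4861 ± 478 with the *Slc2a1* gRNA and 3190 ± 139 with the 5 gRNAs. The deleted populations thus stood at 75.1 and 49.3% of control. In the count-based fit *H2-K1* and *H2-D1* were not called with the *Slc2a1* gRNA (log2 fold changes -0.13 and -0.15). The 29 class Ib genes, several of them annotated pseudogenes, summed to 2198 ± 168, 1499 ± 158 and 1045 ± 64.7, or 68.2 and 47.5% of control. The 10 class II genes without *Cd74* summed to 73.1 ± 17.9, 44.05 ± 12.3 and 30.7 ± 3.28, or 60.2 and 41.9%. No sample of the 5-gRNA group reached a sample of the other groups in class Ia and class Ib. With shares of all estimated counts in place of TPM the log2 ratio of class Ia was -0.23 in place of -0.41 with the *Slc2a1* gRNA, and -0.85 in place of -1.02 with the 5 gRNAs. No test was run on the sums.

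**Figure D3:**
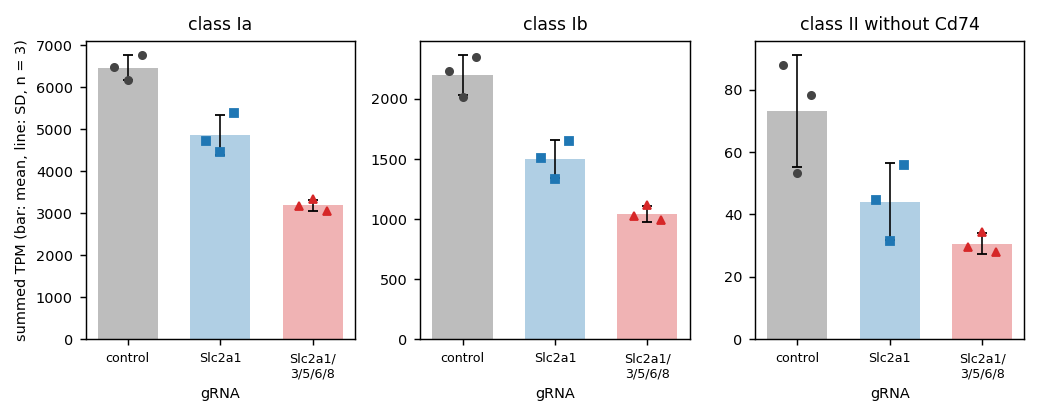
Summed TPM per sample (points), mean (bars from 0) and SD (lines, n = 3) of class Ia, class Ib and class II genes without *Cd74* in the 3 gRNA groups. The means step down from control through the *Slc2a1* gRNA to the 5 gRNAs in each class, and the class II samples of the deleted populations overlap.

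The make-up of the class I sum was compared as shares of the summed class I TPM. *H2-K1* made 51.5 ± 1.34% (SD, n = 3) of it in control, 50.8 ± 1.46% with the *Slc2a1* gRNA and 48.1 ± 1.33% with the 5 gRNAs. *H2-D1* made 23.2 ± 0.81, 25.6 ± 0.844 and 27.2 ± 1.19%. The share of *H2-Q7* went from 9.57 ± 0.175% in control to 8.32 ± 0.14% and 7.75 ± 0.137%, and that of *H2-Q5* from 2.24 ± 0.131% to 1.58 ± 0.154% and 1.28 ± 0.0882%. *H2-T23* made 1.84 ± 0.137, 1.84 ± 0.154 and 2.62 ± 0.138%. No test was run on these shares.

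The direct comparison of the deleted populations tested which members stood lower with the 5 gRNAs than with the *Slc2a1* gRNA. The 12 lower members were *H2-Q10* (-1.17, adjusted p = 0.00137), *Nlrc5* (-1.41, adjusted p = 0.00126), *H2-T22* (-0.87, adjusted p = 0.00168), *H2-T10* (-0.86, adjusted p = 0.00501), *H2-Q7* (-0.86, adjusted p = 0.00596), *H2-Q4* (-0.73, adjusted p = 0.00663), *H2-Q5* (-0.97, adjusted p = 0.00745), *H2-K1* (-0.73, adjusted p = 0.0137), *B2m* (-0.65, adjusted p = 0.0147), *H2-D1* (-0.59, adjusted p = 0.0308), *H2-Eb1* (-0.71, adjusted p = 0.0331) and *Tap1* (-0.52, adjusted p = 0.0358). All but *H2-Eb1* belong to the class I arm. Of these, *H2-Q5*, *H2-Q7*, *H2-Q10* and *H2-Eb1* were called in each of the 3 comparisons. Values near 0 were found for *Tap2* (-0.01), *H2-Ke6* (-0.06) and *Tapbp* (0.07). The count was 3 without *Slc2a1* gRNA replicate 2, 7 without *Slc2a1* gRNA replicate 3 and 9 with effective length as an offset. Of all genes 0.291, 0.886 and 0.687% were called in these fits, beside 2.31% in the fit used above. With only the 2 groups compared 7 members were called, beside 0.883% of all genes. Limma fits of TPM with a pseudocount of 1 or 0.1 called 0 members, beside 0.123 and 0.253% of all genes. There 14 and 13 members had an unadjusted p under 0.05. DESeq2 on counts called 13 members, beside 5.48% of all genes.

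The deposited lengths are means over a gene's transcripts weighted by their estimated abundance, so a shift between transcripts shows in them. The mean transcript length of *H2-K1* was 1133, 1134 and 1168 bases in control, 1329.5, 1231 and 1237 with the *Slc2a1* gRNA and 1227, 1281 and 1332 with the 5 gRNAs. Both deleted populations lay above control and overlapped each other. *H2-Q7* went the other way, from 1845, 1746 and 1829 bases in control to 1652, 1678 and 1671 and 1538, 1646 and 1583. *H2-D1* stayed between 2039.7 and 2052 bases in the 9 samples. In all, 4 of 29 members with the *Slc2a1* gRNA and 9 of 29 with the 5 gRNAs had lengths that did not overlap control, beside 9.79 and 12.6% of all tested genes. With effective length as an offset the log2 fold change of *H2-K1* was -0.30 (adjusted p = 0.271) with the *Slc2a1* gRNA and -1.04 (adjusted p = 0.0033) with the 5 gRNAs. No test was run on the lengths.

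**Figure D4:**
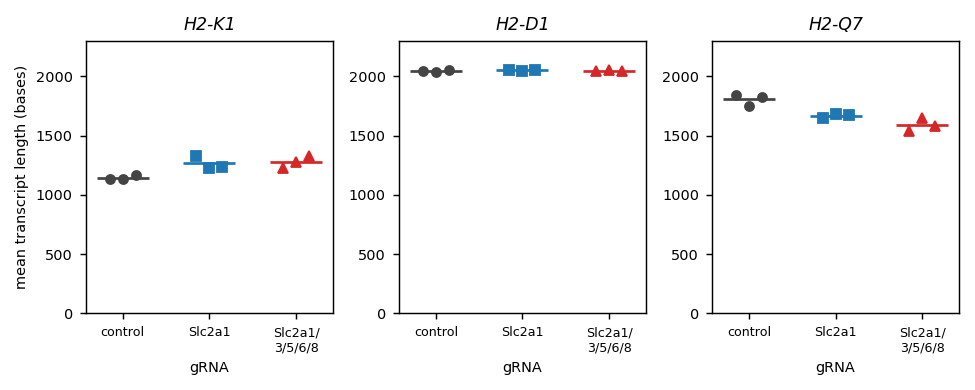
Mean transcript length in bases of *H2-K1*, *H2-D1* and *H2-Q7* in each sample (points) with the group mean (line), on an axis from 0. *H2-K1* is longer and *H2-Q7* shorter in the deleted populations than in control, while *H2-D1* is level.

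Since shared sequence makes read assignment uncertain, members were also divided by its extent. Among the 13 tested members with under 10% of their 31-base words in another gene, 3 fell with the *Slc2a1* gRNA, 8 with the 5 gRNAs and 4 between the deleted populations, with median log2 fold changes of -0.37, -0.74 and -0.27. Among the 16 with a larger share, 5, 13 and 8 did, with medians of -0.30, -0.89 and -0.55. Of all tested genes 2.39, 7.44 and 0.947% were called lower in these comparisons. The 16 include *H2-K1*, *H2-D1*, *H2-T23* (24.45%) and *H2-DMb1* (31.4%).

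The rest of the class I pathway was followed in 13 genes listed apart from the members. With the *Slc2a1* gRNA 1 was lower and 1 higher, beside 4.64% of all genes called. In the 5-gRNA group 2 were lower, beside 15.9% of all genes called and 7.44% called lower, and the median log2 fold changes were 0.03 and -0.09. *Calr* (calreticulin, a chaperone of the loading complex) fell in both, -0.53 (adjusted p = 0.0277) and -0.94 (adjusted p = 0.000544). Of the immunoproteasome subunits, *Psmb9* had -0.25 (adjusted p = 0.375) and fell with the 5 gRNAs at -0.67 (adjusted p = 0.0145), *Psmb8* had 0.03 (adjusted p = 0.91) and -0.27 (adjusted p = 0.135), and *Psmb10* rose with the *Slc2a1* gRNA at 0.50 (adjusted p = 0.0323), with 0.34 (adjusted p = 0.0643) for the 5 gRNAs.

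Of 11 tested genes of the class II processing route 2 fell in both comparisons, beside 2.39% of all genes called lower with the *Slc2a1* gRNA and 7.44% with the 5 gRNAs. *Ifi30*, the lysosomal thiol reductase, had -0.57 (adjusted p = 0.0201) with the *Slc2a1* gRNA and -1.10 (adjusted p = 0.00018) with the 5 gRNAs, and it was lower again between the deleted populations at -0.53 (adjusted p = 0.033). *Lgmn*, the asparaginyl endopeptidase, had -0.50 (adjusted p = 0.0409) and -0.71 (adjusted p = 0.00352). Against the same shares of all genes, 1 of 7 tested class I-like genes outside the H2 names fell in both, the NKG2D ligand *Ulbp1*, with -0.63 (adjusted p = 0.0356) and -0.91 (adjusted p = 0.00275).

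Of 16 tested factors that act on MHC promoters, 1 fell with the *Slc2a1* gRNA, and 1 fell and 2 rose with the 5 gRNAs, beside 4.64 and 15.9% of all genes called. *Stat2* fell in both, -0.58 (adjusted p = 0.018) and -0.53 (adjusted p = 0.00863), while *Creb1* and *Nfyc* rose with the 5 gRNAs at 0.38 (adjusted p = 0.0362) and 0.53 (adjusted p = 0.0311). *Irf1* had -0.22 (adjusted p = 0.246) and -0.17 (adjusted p = 0.28), and the class II factor *Rfx5* -0.25 (adjusted p = 0.242) and -0.27 (adjusted p = 0.145). *Irf8* was at most 0.351 TPM and was not tested. Of 8 interferon receptor and kinase genes, read against the same shares, *Ifnar2* fell in both at -0.52 (adjusted p = 0.0417) and -0.73 (adjusted p = 0.00405), and *Ifnar1* fell with the 5 gRNAs at -0.47 (adjusted p = 0.0209).

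The H2 genes and *Tap1*, *Tap2* and *Tapbp* lie together on chromosome 17, while *B2m* is on chromosome 2 (122147686 to 122153083) and *Nlrc5* on chromosome 8 (94434356 to 94527272). Coordinates are those of GENCODE M21 on GRCm38, which may differ from the annotation behind the deposited tables. Starts of H2 members run from 33974659 (*H2-K2*) to 37480851 (*H2-M2*) on chromosome 17, and 94 tested genes that are no members start between them. With the 5 gRNAs 11 of the 94 were lower and 3 higher, or 14.9% called, against 16.8% of 576 tested genes elsewhere on the chromosome, of which 43 were lower and 54 higher. The median log2 fold change of the 94 was -0.19 against 0.01. The 94 are not all unrelated to the members. Among the 11 lower genes are *Psmb9* (-0.67, adjusted p = 0.0145), listed above in the class I pathway, and *Gm20427* (-1.04, adjusted p = 0.0271), which overlaps *H2-Ke6*. With the *Slc2a1* gRNA 4 of the 94 were lower and 2 higher, or 6.38% called, against 4.51% elsewhere on the chromosome.

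The 4 interleaved genes with the smallest adjusted p with the 5 gRNAs went in both directions. *Atat1*, which acetylates alpha-tubulin, was lower at -1.04 (adjusted p = 0.000446), the GABA-B receptor gene *Gabbr1* at -0.85 (adjusted p = 0.00211) and the ubiquitin ligase gene *Rnf5* at -0.63 (adjusted p = 0.00621). *Ltb*, encoding lymphotoxin beta, was higher at 1.88 (adjusted p = 0.00156). It had 1.57, 1.58 and 4.02 TPM in control, 4.67, 5.65 and 9.25 with the *Slc2a1* gRNA and 7.03, 8.48 and 7.48 with the 5 gRNAs, and both deleted populations lay above every control sample.

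**Figure D5:**
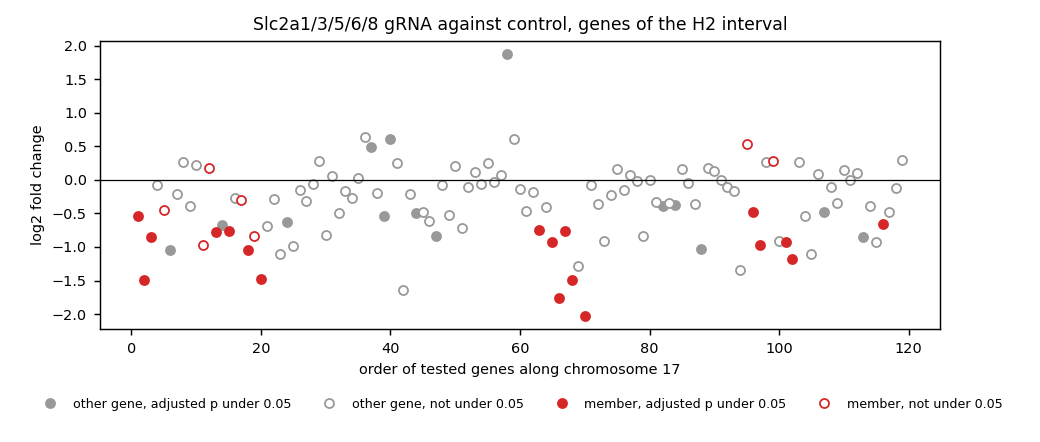
Log2 fold change with the 5 gRNAs against control of the tested genes of the H2 interval, in their order along chromosome 17. The first point is the member *Tapbp*, which starts before the interval. Members are red and other genes grey, filled where the adjusted p was under 0.05. All filled members lie below 0, and the grey points spread around a median of -0.19.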

How the data were processed

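RNA of 9 cultures (3 groups of 3) was converted to oligo-dT primed cDNA and read as paired 150-base reads. Per the labels and the submitters' processing notes, the authors quantified it with Salmon 1.5.1. Each deposited gene table holds an estimated count, a TPM and a length averaged over transcripts. The transcript annotation is not given in the sources used here.

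The estimated counts were rounded and tested for 13834 genes after edgeR's filterByExpr with TMM scaling, in 1 quasi-likelihood fit of all 9 samples with the replicate number as a block (edgeR 4.0.16, R 4.3.3). Benjamini-Hochberg adjusted p-values were called under 0.05. SEs were derived from the F statistic. The block was used because the study states a paired analysis. Deviations of same-numbered samples correlated at 0.111 to 0.215 between the control and *Slc2a1* gRNA groups and at -0.107 to 0.162 in the other group pairs. Differently numbered samples correlated at -0.2 to 0.038 between control and *Slc2a1* gRNA and at -0.254 to 0.194 in the other group pairs. Because differently numbered samples reached 0.194, this measure does not settle whether the samples are paired. Estimated counts total 21838805 to 30537105 per sample, and replicate pairs differed by more than sampling noise (chi-squared per degree of freedom 20.8 or more).

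Members and lists were chosen with earlier results of these data known. Every tested member is named, and of the others those with a mean of at least 3 estimated counts. Of each list, genes called against control are named, at most the 6 with the smallest adjusted p, plus *Psmb8*, *Psmb9*, *Irf1*, *Rfx5* and *Irf8*, and of the interval the 4 with the smallest adjusted p with the 5 gRNAs. A further gene of that rule is not reported here. Alternatives used DESeq2 1.42.0, limma 3.58.1 on log2(TPM + 1) and log2(TPM + 0.1), other filters and scalings, and, added after seeing the data, effective length as an offset and members with few shared words of 31 bases. On simulated counts for the 5 gRNAs against control, with 13537 genes tested, the fit found 89 of 100 genes changed 2-fold and called 5 unchanged genes. Between the deleted populations it found 81 of 100 and called 15 unchanged genes. The simulation gave every gene the same dispersion (its spread between replicates) and held no replicate effect, so its rates need not hold for these data.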

Additional observations from a re-analysis of the deposited data

How the results depend on the processing

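Depth limits *Ciita*, *H2-Bl*, *H2-DMb2* and the 23 members not tested. With the *Slc2a1* gRNA 8 members were called, and the count was 16 with only the 2 groups compared, 0 with limma on log2(TPM + 1) and 0 with limma on log2(TPM + 0.1) (21 and 18 at an unadjusted p under 0.05, and 11 called by DESeq2), 2 with effective length as an offset, 3 over members with few shared words, and 0 to 11 with a sample left out. With the 5 gRNAs 21 were called, beside 15.9% of all genes. The count was 6 with limma on log2(TPM + 0.1) (0.636% of all genes) and 8 over members with few shared words. It was 17 to 23 with a sample left out (4.45 to 17.7% of all genes). Between the deleted populations 12 were called, beside 2.31% of all genes. The count was 7 with only the 2 groups compared (0.883% of all genes) and 0 and 0 with limma (0.123 and 0.253%). There 14 and 13 members had an unadjusted p under 0.05, and DESeq2 called 13 (5.48% of all genes). The count was 4 over members with few shared words and 3 to 12 with a sample left out (0.291 to 2.64% of all genes). Without the replicate block 6, 20 and 10 were called, beside 3.86, 13.6 and 0.932% of all genes. DESeq2 called 22 with the 5 gRNAs, beside 18.6% of all genes. The words and length alternatives were added after seeing the data, and the words alternative covers 13 of the 29 tested members. The cause of these differences was not tested, except that few members remain when shared words are limited.

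For class Ia with the *Slc2a1* gRNA the log2 ratio was -0.23 on shares of all estimated counts and -0.49 to -0.35 with a sample left out, and with the 5 gRNAs it was -0.85 on these shares. For class Ib with the *Slc2a1* gRNA it was -0.63 to -0.48 with a sample left out. Log2 fold changes that turned in sign were all of members not called in that comparison. With the *Slc2a1* gRNA these were *H2-T24* (-0.020 with total count scaling, -0.11 to 0.18 with a sample left out), *H2-Bl* (-0.0077 and -0.032 with limma, -0.093 to 0.29 with a sample left out) and *Nlrc5* (-0.36 to 0.013 with a sample left out). With the 5 gRNAs they were *H2-DMb2* (-0.13 to 0.45) and *Ciita* (-1.22 to 1.85), both with a sample left out. Between the deleted populations, with a sample left out, they were *H2-T23* (-0.35 to 0.018), *H2-T-ps* (-0.45 to 0.022), *H2-Bl* (-0.023 to 0.37), *H2-Ob* (-0.61 to 0.17), *H2-DMa* (-0.71 to 0.28), *H2-DMb2* (-0.47 to 0.10), *Tapbp* (-0.080 to 0.28), *Tap2* (-0.076 to 0.083) and *H2-Ke6* (-0.25 to 0.11). There *Tapbp* was also -0.0086 with effective length, *Tap2* 0.037 with total count scaling, 0.11 and 0.11 with limma and 0.033 with effective length, and *H2-Ke6* 0.0080 and 0.0083 with limma. The cause was not tested.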
